A study of Mus musculus with 46 samples.

Results

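Open chromatin was compared between AgRP-positive and AgRP-negative nuclei sorted from the arcuate nucleus of the mouse hypothalamus. The assay was ATAC-seq, in which a transposase inserts sequencing adapters where DNA is accessible, so that reads accumulate in peaks over open promoters and enhancers. The comparison used 4 of the 46 samples of the series, 2 AgRP-positive and 2 AgRP-negative libraries. It covered the 66560 peaks, of 67472 in the deposited table, whose mean over the 4 libraries was above 1 CPM (counts per M reads in peaks). Only the level entered that rule, not the difference between the groups. At its edge, the last peak inside had a mean of 1.00016 CPM and a log2 fold change of 0.24, and the first outside had 0.999605 CPM and 0.09.

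All 4 libraries were from male NuTRAP-AgRP mice of 6 to 11 weeks that were fed ad libitum and received no treatment. These mice carry AgRP-IRES-Cre and a Cre-dependent cassette that puts GFP on the ribosomal protein L10a and mCherry on the nuclear envelope protein RANGAP. Both groups share these alleles, since nuclei of pooled arcuate tissue were sorted into a GFP-positive and a GFP-negative fraction. Cre recombination is permanent, so the tag marks cells that express *Agrp* now or did so earlier. The labels call the GFP-negative nuclei non-AgRP neurons. The sort, as described, used GFP alone, and peaks at oligodendrocyte and astrocyte genes were open in that fraction (values below), so it is called AgRP-negative here and not neuronal. It is a mixture, and a peak at a low level in all of its nuclei cannot be told apart from a peak that is wide open in a few of them.

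AgRP neurons are inhibitory neurons of the arcuate nucleus that release agouti-related peptide, neuropeptide Y and GABA. They are active in hunger, respond to ghrelin and are restrained by leptin and insulin. Neurons of one type hold most of their distinguishing open chromatin away from promoters, at enhancers that transcription factors bind. AP-1 factors (Fos and Jun proteins), which rise with neuronal activity, and STAT factors, which act below the leptin receptor, each bind a short palindromic sequence.

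Stretches of called peaks that hold such letters are shown first, because the shares of peaks with these letters are a main part of the results. Each line is 120 bases of the plus strand of GRCm38 (RefSeq), with the match in capitals. In the first 4, at or near genes of AgRP neurons, the capitals mark the AP-1 letters TGANTCA. They lie at chr6:49821344-49821463 upstream of *Npy*, chr6:49829822-49829941 downstream of it, chr2:58364985-58365104 upstream of *Acvr1c* and chr5:72355706-72355825 in an intron of *Corin*.
Npy upstream peak: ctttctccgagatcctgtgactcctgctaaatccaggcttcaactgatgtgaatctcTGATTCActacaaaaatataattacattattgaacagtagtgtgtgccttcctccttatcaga
Npy downstream peak: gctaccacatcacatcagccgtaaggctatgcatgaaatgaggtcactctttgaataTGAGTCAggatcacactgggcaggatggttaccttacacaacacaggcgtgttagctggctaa
Acvr1c upstream peak: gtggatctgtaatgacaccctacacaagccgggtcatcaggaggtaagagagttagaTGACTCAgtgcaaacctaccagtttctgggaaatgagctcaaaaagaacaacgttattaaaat
Corin intron peak: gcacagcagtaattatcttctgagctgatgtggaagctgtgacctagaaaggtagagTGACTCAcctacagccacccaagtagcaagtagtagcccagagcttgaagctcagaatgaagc
The next pair carries the STAT letters TTCCNGGAA and comes from intergenic peaks that are among the 10 largest increases, at chr2:116942531-116942650 (nearest start site *Tmco5*) and chr15:103262596-103262715 (nearest start site *Nfe2*).
Peak nearest Tmco5: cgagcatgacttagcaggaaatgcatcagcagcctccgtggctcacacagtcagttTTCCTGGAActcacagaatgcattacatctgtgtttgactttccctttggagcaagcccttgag
Peak nearest Nfe2: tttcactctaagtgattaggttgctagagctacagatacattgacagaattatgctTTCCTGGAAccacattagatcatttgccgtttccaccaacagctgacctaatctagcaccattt
The last is from a peak that was lower in AgRP-positive nuclei, at chr16:91222667-91222786, upstream of the oligodendrocyte gene *Olig2* and inside an exon annotated as *Gm49614*. Its capitals mark one of the SOX letters ACAATGG and ACAAAGG.
Olig2 peak: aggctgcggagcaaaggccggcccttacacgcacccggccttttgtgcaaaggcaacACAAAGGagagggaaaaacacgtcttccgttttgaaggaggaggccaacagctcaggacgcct

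The libraries held 8685497 to 11177208 reads in peaks. Libraries of 1 group were more alike (Pearson r of log2 CPM across peaks 0.947 for AgRP-negative and 0.946 for AgRP-positive) than libraries of different groups (0.749 to 0.761). A set of 107 mitochondrial, unplaced or very high peaks held 24.7 to 25.2% of AgRP-negative reads and 16.2 to 17.5% of AgRP-positive reads. Leaving them out gave 15940 higher and 10407 lower peaks, against the 15926 and 10405 given below.

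The sort was first checked at *Agrp* itself. Its promoter peak (chr8:105567432-105568470) had 7.02 and 8.88 CPM in the AgRP-negative libraries and 83.4 and 83.5 CPM in the AgRP-positive ones. The groups did not overlap, and the difference was 10.5-fold (log2 fold change 3.39 ± 0.17 SE, FDR 1.55e-77). The promoter of the neighbouring *Atp6v0d1*, which encodes a subunit of the vacuolar proton pump, lies beside it and had 86.4, 92.6, 78.2 and 75.04 CPM in the same order (-0.22 ± 0.12, FDR 0.111). Thus only one of the 2 adjacent promoters passed the test.

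Across the genome, 15926 of the 66560 peaks were higher in AgRP-positive nuclei (23.9%) and 10405 were lower (15.6%), where a call needed both an FDR below 0.05 and a log2 fold change beyond 0.5 in size. Both AgRP-positive libraries lay above both AgRP-negative ones in 36.9% of all peaks tested, and below both in 33.9%. Increases were the larger changes. Of the higher peaks, 5800 (36.4%) passed a log2 fold change of 2 and 1107 passed 3. Of the lower peaks, 2174 (20.9%) and 195 did so in the other direction. A typical higher peak went from a median of 2.13 CPM in AgRP-negative nuclei to 7.52 CPM in AgRP-positive nuclei, and a typical lower peak from 7.10 to 2.71 CPM. How the libraries are scaled moved the balance of the calls. Increases made up 60.5% of calls with TMM scaling, 71.4% with library size alone, 74.7% when scaled to 16 promoter peaks of housekeeping genes and 50.3% with loess offsets. Under these 3 alternatives the log2 fold changes of all peaks shifted by a median of 0.16, 0.22 and -0.24. Directions below are given relative to the TMM scale. The count of lower peaks was 6056 without the first AgRP-negative library and 6602 without the second, and the count of higher peaks was then 10813 and 10829.

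**Figure D1:**
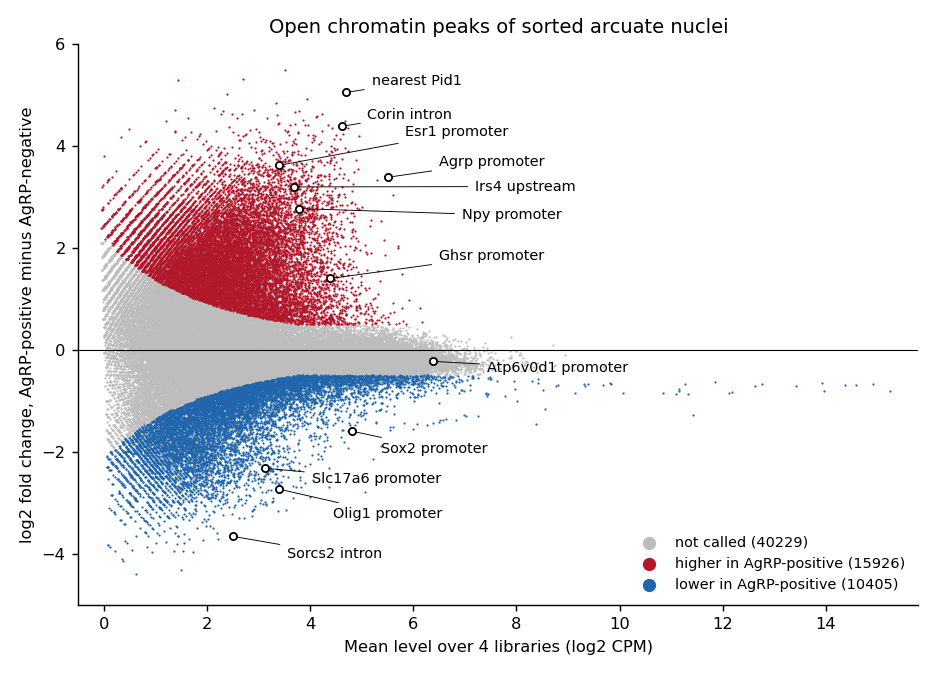
Log2 fold change of each tested peak (AgRP-positive minus AgRP-negative) against its mean level over the 4 libraries in log2 CPM, with 15926 higher peaks in red, 10405 lower peaks in blue and 40229 peaks that were not called in grey. Named peaks are circled: the *Agrp* promoter stands at 3.39, while the *Atp6v0d1* promoter beside it in the genome stands at -0.22.

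Genes that define AgRP neurons had the highest share of higher peaks among the 17 gene lists examined. The lists were chosen with earlier results of these data known. The study names *Agrp*, *Npy*, *Corin*, *Lepr*, *Serpina3c*, *Acvr1c*, *Ghsr*, *Otp* and *Irs4*, all in this list, for this same comparison. The rank of the list is therefore partly set by that choice and is a description only. Among all peaks tested, 23.9% were higher and 15.6% were lower. Of 74 peaks within 10 kb of 17 such genes, 38 were higher (51.4%) and 2 were lower (2.70%), and 14 of the genes had at least 1 higher peak. Their median log2 fold change was 1.06, against 0.00 over all peaks tested, and it lay between 0.86 and 1.28 under the scalings tried. Both lower peaks were assigned to *Agrp* only because a long readthrough transcript of it reaches the *Ctcf* locus. Both of them are at or upstream of *Ctcf*, which encodes the insulator protein CTCF.

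The peptide gene *Npy* had 3 tested peaks and all were higher. Its promoter peak (chr6:49822319-49822966) had 4.06 and 2.96 CPM in AgRP-negative libraries and 25.8 and 22.2 CPM in AgRP-positive libraries (2.77 ± 0.26, FDR 4.37e-24). The upstream peak printed above, 1.16 kb from the start site, had 0.985, 1.07, 12.1 and 7.50 CPM (3.23 ± 0.43, FDR 3.05e-12). The downstream peak printed above, 6.91 kb from the start site, had 1.23, 0.355, 9.06 and 6.33 CPM (3.27 ± 0.49, FDR 7.87e-10). Each AgRP-positive library was above each AgRP-negative one at all 3, and the flanking peaks were near the floor of detection in AgRP-negative nuclei.

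*Corin*, which encodes a membrane serine protease, was opened along much of its length, with 8 of 15 peaks higher and none lower. Its strongest peak, in an intron at chr5:72378163-72378911, had 2.58 and 1.89 CPM in AgRP-negative libraries and 40.2 and 53.5 CPM in AgRP-positive libraries. This was a 20.9-fold difference (4.39 ± 0.25, FDR 2.07e-64). The promoter, with 4.18, 2.01, 12.6 and 13.2 CPM, changed less (2.07 ± 0.31, FDR 5.92e-10). The intron peak printed above lay between them (2.09, 3.20, 15.2 and 12.0 CPM, 2.35 ± 0.32, FDR 4.69e-12). Of the 8 calls, 3 at weakly open peaks were lost without the second AgRP-negative library.

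*Acvr1c* encodes the activin receptor ALK7 and had 7 of 10 peaks higher. The peak 6.77 kb upstream, printed above, had 2.83 and 3.20 CPM in AgRP-negative libraries and 26.02 and 25.4 CPM in AgRP-positive ones (3.09 ± 0.27, FDR 1.21e-28). A peak beyond its 3′ end had 1.11, 1.89, 18.6 and 21.2 CPM (3.71 ± 0.33, FDR 4.80e-27). Of its 2 promoter peaks, the one at chr2:58357077-58358278 was higher (14.5, 11.7, 35.3 and 27.7 CPM, 1.26 ± 0.18, FDR 2.08e-10), and the one at chr2:58324330-58324919 was not called (5.17, 5.92, 6.31 and 5.75 CPM, 0.12 ± 0.32, FDR 0.793).

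Receptors for the hormones that AgRP neurons read followed. At *Ghsr*, the ghrelin receptor, the single peak at the promoter had 11.1 and 12.0 CPM in AgRP-negative libraries and 31.6 and 29.3 CPM in AgRP-positive ones (1.40 ± 0.19, FDR 6.82e-12). At *Lepr*, the leptin receptor, the promoter had 7.14, 4.62, 16.3 and 14.8 CPM (1.41 ± 0.25, FDR 4.01e-07). An intron peak 8.59 kb downstream of that start site was nearly closed in AgRP-negative nuclei, with 0.862 and 0.947 CPM against 7.64 and 5.75 CPM (2.86 ± 0.50, FDR 1.11e-07). The promoters thus differed less in fold than the intronic peak. *Irs4*, an adaptor below the insulin receptor, showed the same order. A peak 9.01 kb upstream had 2.46, 2.60, 19.98 and 26.6 CPM (3.20 ± 0.28, FDR 3.07e-27), whereas its promoter was open in both groups (33.6, 26.8, 39.3 and 46.2 CPM, 0.51 ± 0.15, FDR 0.00303). The promoter call was lost without the second AgRP-negative library (FDR 0.152).

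The 3 serpin genes examined in the *Serpina3* cluster, which encode secreted protease inhibitors, were higher at their promoters. The values were 4.06, 3.43, 21.6 and 22.4 CPM at *Serpina3c* (2.55 ± 0.26, FDR 2.22e-20), 3.82, 2.84, 20.2 and 22.3 CPM at *Serpina3i* (2.67 ± 0.27, FDR 7.52e-21), and 12.1, 11.5, 30.02 and 33.1 CPM at *Serpina3n* (1.42 ± 0.19, FDR 1.59e-12). Genes of this cluster are close copies of one another, and reads could be placed at the wrong copy. *Asb4*, a ubiquitin ligase adaptor, was higher at an intron peak with 7.63, 7.22, 47.0 and 48.5 CPM (2.68 ± 0.19, FDR 1.99e-40), while neither of its promoter peaks was called.

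Not every gene of the list followed. *Hsd11b2*, which encodes the enzyme that inactivates glucocorticoids, lies on the other side of *Atp6v0d1* from *Agrp*, and its promoter had 14.9, 18.1, 17.6 and 20.5 CPM (0.21 ± 0.19, FDR 0.396). *Calcr*, the calcitonin receptor, had 3.82, 2.60, 5.95 and 3.66 CPM at its promoter (0.58 ± 0.39, FDR 0.23). The main promoter peak of *Vgf*, a neuropeptide precursor gene, had 13.0, 16.7, 20.5 and 20.9 CPM. Its log2 fold change of 0.48 ± 0.19 was under the threshold of 0.5 although its FDR was 0.036.

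**Figure D2:**
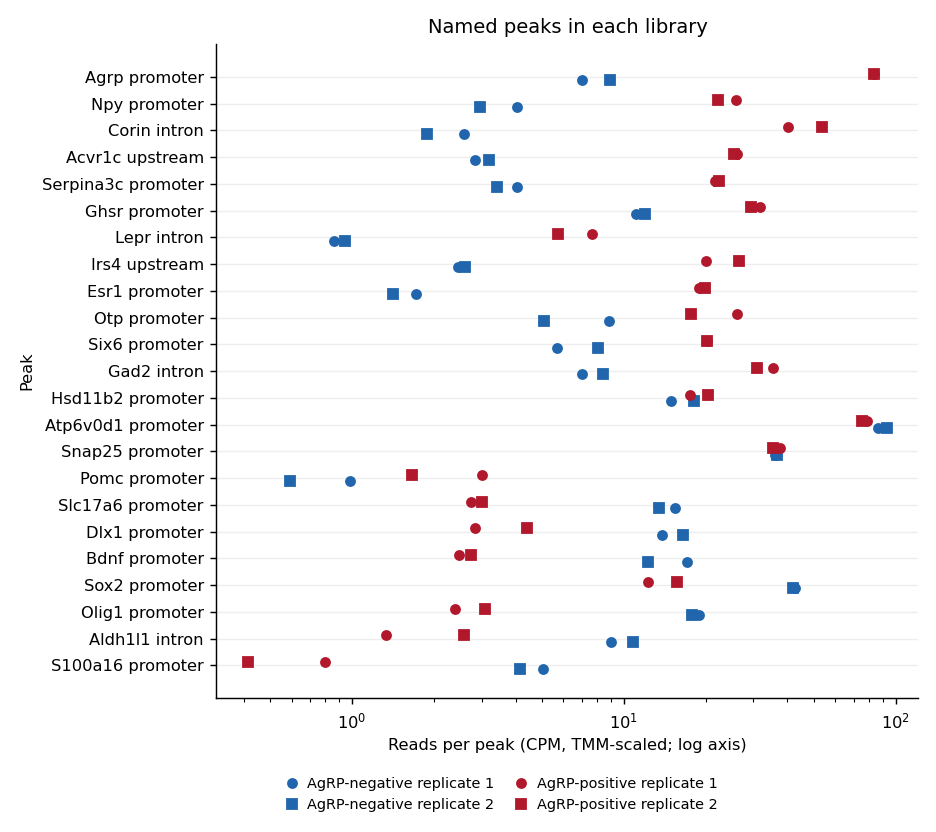
Reads per peak in CPM on a log axis for each of the 4 libraries (blue, AgRP-negative; red, AgRP-positive; circles, replicate 1; squares, replicate 2). The *Agrp* promoter has 83.4 and 83.5 CPM in AgRP-positive libraries against 7.02 and 8.88 CPM, the 2 groups coincide at the *Snap25* promoter, and they change sides at the *Slc17a6* promoter and the peaks listed under it.

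At 15 transcription factor genes of arcuate neurons with a tested peak, 16 of 41 peaks were higher (39.0%) and 8 were lower (19.5%). Over all peaks these shares were 23.9% and 15.6%. The median at these genes was 0.45 (0.31 to 0.67 under the scalings tried). Without the first AgRP-negative library 4 were lower. The calls divided by gene, and no gene had calls in both directions. *Otp*, a homeobox gene that AgRP neurons need for their identity, had 8.86 and 5.09 CPM at its promoter in AgRP-negative libraries and 26.2 and 17.7 CPM in AgRP-positive ones (1.65 ± 0.23, FDR 1.24e-11). The promoter of *Bsx*, a homeobox activator of *Agrp* and *Npy*, had 4.18, 3.20, 10.1 and 11.24 CPM (1.54 ± 0.31, FDR 7.16e-06). *Isl1* (20.8, 19.3, 40.6 and 37.6 CPM, 0.96 ± 0.16, FDR 6.08e-08), *Tbx3* (14.2, 14.2, 34.5 and 31.6 CPM, 1.22 ± 0.18, FDR 3.07e-10) and *Six6* (5.66, 8.05, 20.3 and 20.2 CPM, 1.56 ± 0.23, FDR 4.30e-10) were also higher at their promoters. At each of these 5 promoters both AgRP-positive libraries were above both AgRP-negative ones, and the promoter was not closed in AgRP-negative nuclei. *Nhlh2*, a basic helix-loop-helix gene, went the other way (5.78, 6.63, 2.13 and 1.33 CPM, -1.85 ± 0.42, FDR 7.28e-05). Lower peaks were also called at *Hmx2*, *Hmx3*, *Nkx2-1* and *Sox14*, though each of these lost its call when a single library was left out. For *Nkx2-1*, which specifies the ventral hypothalamus, the promoter FDR was 0.116 without the second AgRP-negative library.

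Transmitter genes separated into machinery and patterning factors. *Gad1* and *Gad2*, which make GABA, and *Slc32a1*, which loads it into vesicles, had higher peaks and no lower ones, while *Dlx1*, *Dlx2*, *Dlx5* and *Dlx6* had lower peaks and no higher ones. Of all peaks tested, 23.9% were higher and 15.6% were lower. Over the 9 genes of the list, 11 of 26 peaks were higher (42.3%) and 7 were lower (26.9%), with a median of 0.49. Without the first AgRP-negative library 6 were higher, and without the second 4 were lower. An intron peak of *Gad2* had 7.02 and 8.40 CPM in AgRP-negative libraries and 35.5 and 30.8 CPM in AgRP-positive ones (2.10 ± 0.20, FDR 1.83e-22), and one of *Gad1* had 3.08, 2.72, 8.44 and 9.66 CPM (1.64 ± 0.34, FDR 1.49e-05). The *Slc32a1* promoter was higher by 0.64 ± 0.18 (FDR 0.00207), a call that was lost without the first AgRP-negative library (FDR 0.107). The *Dlx* genes encode homeobox factors of forebrain GABA neurons and had low values in AgRP-positive nuclei. The *Dlx1* promoter had 13.8, 16.5, 2.84 and 4.41 CPM (-2.05 ± 0.28, FDR 3.87e-12), and a *Dlx6* promoter peak had 9.11, 11.8, 2.40 and 1.33 CPM (-2.50 ± 0.35, FDR 4.82e-11).

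Of 9 peaks at the glutamate transporter genes, 5 were lower (55.6%) and 1 was higher (11.1%), against 15.6% and 23.9% of all peaks. The median of the 9 was -0.91 (-1.10 to -0.70 under the scalings tried). The count of lower peaks was 1 without the first AgRP-negative library, 3 without the second and 2 without the second AgRP-positive library, and it was 2 with library-size scaling, housekeeping scaling or DESeq2. The promoter of *Slc17a6*, the vesicular glutamate transporter of hypothalamic neurons, had 15.4 and 13.5 CPM in AgRP-negative libraries and 2.75 and 3.00 CPM in AgRP-positive ones, a 4.99-fold difference (-2.32 ± 0.29, FDR 1.34e-13). The single increase was at *Slc17a8*, the transporter VGLUT3, in an exon peak with 4.06, 3.79, 9.15 and 9.24 CPM (1.23 ± 0.32, FDR 0.00058).

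Loci of other hypothalamic neurons were lower more often than higher. Of 34 peaks at 18 neuropeptide and marker genes, 14 of which had a tested peak, 7 were lower (20.6%) and 2 were higher (5.88%). Of all peaks tested, 15.6% were lower and 23.9% were higher. At promoters 4 of 7 peaks of the list were lower, where 14.3% of all promoter peaks were. *Ghrh*, the growth hormone-releasing hormone gene, had 8.74, 6.75, 2.13 and 2.58 CPM at its promoter (-1.70 ± 0.36, FDR 2.45e-05). *Fezf1*, a factor of the neighbouring ventromedial nucleus, had 6.03, 8.17, 2.04 and 0.833 CPM (-2.32 ± 0.42, FDR 4.53e-07). The promoter of *Kiss1*, which marks kisspeptin neurons, was called lower as well, but its value rested on the second AgRP-negative library (1.97 and 6.39 CPM against 1.07 and 0.833 CPM, FDR 0.471 without it). One peak was much higher, an intergenic one 1.48 kb upstream of *Avp*, the vasopressin gene, and also within 10 kb of *Oxt*, the oxytocin gene, with 3.45, 4.26, 22.1 and 19.2 CPM (2.41 ± 0.26, FDR 4.84e-18).

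POMC neurons are the appetite-suppressing neighbours of AgRP neurons, and their genes were few and mostly not called. Of all peaks tested, 23.9% were higher and 15.6% were lower. Of 10 peaks at 4 genes, none was higher and 1, upstream of *Cartpt*, was lower, a call that was lost without the second AgRP-negative library (FDR 0.131). The *Pomc* promoter was nearly closed in all 4 libraries (0.985, 0.592, 3.02 and 1.67 CPM) and did not pass the test (1.55 ± 0.70, FDR 0.059). The list's median of -0.10 changed sign with library-size scaling (0.06) and housekeeping scaling (0.12).

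Genes used by all neurons did not separate the groups as a list: 32 of 145 peaks at 12 genes were higher and 22 were lower, near the 23.9% and 15.6% of all peaks, with a median of 0.01 that was -0.02 with DESeq2 size factors and -0.06 with loess offsets. Without the first AgRP-negative library 20 were higher and 13 lower, without the second 18 and 9, and without the first AgRP-positive library 12 were lower. The promoter of *Snap25*, a vesicle fusion protein gene, had 35.9, 36.7, 37.5 and 35.3 CPM (0.00 ± 0.15, FDR 0.991). Away from promoters the same genes held strong differences. An intron peak of *Syt1*, the calcium sensor of vesicle release, had 6.28, 8.88, 46.1 and 51.9 CPM (2.69 ± 0.19, FDR 2.60e-41). *Rbfox3*, which encodes the neuronal nuclear antigen NeuN, had 7 of 18 peaks lower and 1 higher.

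Receptors of feeding signals had calls in both directions, 31 of 99 peaks higher and 21 lower over 23 genes (median 0.28). These shares were 31.3% and 21.2%, against 23.9% and 15.6% of all peaks. A peak at an upstream promoter of *Esr1*, the oestrogen receptor alpha gene (chr10:4610234-4610704), had 1.72 and 1.42 CPM in AgRP-negative libraries and 18.9 and 19.9 CPM in AgRP-positive ones, a 12.3-fold difference (3.62 ± 0.33, FDR 7.04e-26). Its other tested promoter peaks, at later start sites, were not called. *Prlr*, the prolactin receptor, was higher at a peak with 2.09, 4.26, 22.0 and 16.5 CPM (2.58 ± 0.28, FDR 2.50e-18). *Insr*, the insulin receptor, was higher in an intron (1.97, 2.96, 9.50 and 11.6 CPM, 2.09 ± 0.34, FDR 1.98e-08) and level at its promoter (32.7, 29.1, 30.7 and 32.1 CPM, 0.02 ± 0.16, FDR 0.919). Peaks near *Npy2r*, the presynaptic NPY receptor (2.25 ± 0.35, FDR 2.98e-09), and in *Glp1r*, the GLP-1 receptor (1.93 ± 0.35, FDR 5.93e-07), were higher too. In the opposite direction stood *Bdnf*, a growth factor gene whose product limits feeding, with 4 of 5 peaks lower and none higher. Its main promoter peak had 17.1, 12.3, 2.49 and 2.75 CPM (-2.48 ± 0.30, FDR 5.99e-15). The promoter of *Cnr1*, the cannabinoid receptor, was lower (39.4, 35.2, 22.2 and 19.2 CPM, -0.85 ± 0.16, FDR 1.63e-06), while a peak 25.8 kb from it was higher (1.27 ± 0.34, FDR 0.000807).

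Over all peaks tested, 23.9% were higher and 15.6% were lower. Genes of leptin and insulin signalling had 16 of 63 peaks higher (25.4%) and 7 lower (11.1%), with a median of 0.19. Of the 15 genes, 9 had a higher peak, 7 had a lower one and 3 had both. Fewer of their peaks were lower without the first AgRP-positive library. Of their 18 promoter peaks 3 were higher, among them that of *Socs3*, the feedback inhibitor that leptin induces (27.6, 28.9, 46.6 and 46.9 CPM, 0.73 ± 0.15, FDR 1.00e-05). For *Ptpn1*, a phosphatase that dampens leptin signalling, an intron peak was higher (1.35, 1.30, 9.41 and 6.25 CPM, 2.54 ± 0.43, FDR 6.51e-08), and for *Stat3* another (2.71, 2.01, 6.57 and 8.74 CPM, 1.70 ± 0.38, FDR 4.75e-05). Of the 3 peaks at *Stat3*, 1 other was called lower (log2 fold change -1.05, FDR 0.0449), a call that was lost with DESeq2. *Foxo1*, which insulin holds out of the nucleus, had a higher peak 92.2 kb from its start site (2.37 ± 0.35, FDR 4.47e-10). The promoter of *Irs1*, by contrast with that of *Irs4*, was lower (110, 96.2, 57.8 and 62.05 CPM, -0.78 ± 0.12, FDR 1.08e-09). Ion channel and synapse genes had none of 16 promoter peaks higher, where 4.86% of all promoter peaks were. Of their 114 peaks, 26 were higher (22.8%) and 21 lower (18.4%), near the shares of all peaks, with a median of 0.14. Without the first AgRP-negative library 14 were higher and 11 lower, and without the second 9 were lower. Intron peaks were higher in *Gabrb1*, a GABA receptor subunit gene (2.82 ± 0.33, FDR 1.32e-15), *Kcnq3*, a potassium channel gene (2.58 ± 0.38, FDR 3.02e-10), and *Grin2a*, an NMDA receptor subunit gene (2.49 ± 0.47, FDR 1.51e-06).

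Glial loci were more often lower than higher in AgRP-positive nuclei. Of all peaks tested, 15.6% were lower and 23.9% were higher. Of 45 peaks at 12 oligodendrocyte genes, 17 were lower (37.8%) and 5 were higher (11.1%), with a median of -0.45. Of 35 peaks at 10 astrocyte genes, 15 were lower (42.9%) and 3 were higher (8.57%), with a median of -0.60. Both medians stayed below 0 under the scalings tried. Without the second AgRP-negative library, 8 oligodendrocyte and 8 astrocyte peaks were lower. Without the first, 2 oligodendrocyte peaks were higher. Calls were mixed at *Mbp*, an oligodendrocyte gene (4 of 13 peaks higher, 3 lower). The 1 peak at *S100b*, an astrocyte gene, was higher (log2 fold change 1.06). The promoter of *Olig1*, an oligodendrocyte lineage factor, had 19.0 and 17.8 CPM in AgRP-negative libraries and 2.40 and 3.08 CPM in AgRP-positive ones (-2.73 ± 0.28, FDR 1.57e-20). The peak upstream of *Olig2* printed above had 8.25, 6.75, 0.888 and 1.17 CPM (-2.84 ± 0.45, FDR 3.24e-09). *Aldh1l1*, an astrocyte enzyme gene, had 8.98, 10.8, 1.33 and 2.58 CPM in an intron (-2.32 ± 0.35, FDR 1.34e-09). *Sox2*, a factor of stem cells, tanycytes and glia, had 42.7, 41.9, 12.3 and 15.7 CPM at its promoter (-1.60 ± 0.17, FDR 2.71e-19). It was counted in the tanycyte and ependymal list below. *S100a16*, which encodes a calcium-binding protein and was in none of the lists, had 5.05, 4.14, 0.799 and 0.416 CPM at its promoter (-2.90 ± 0.59, FDR 6.80e-06). The levels in AgRP-positive nuclei were low but not at 0. Summed over all its peaks, the oligodendrocyte list had 376 and 415 CPM in AgRP-negative libraries and 334 and 375 CPM in AgRP-positive ones, and the astrocyte list 339 and 365 CPM against 279 and 270 CPM. The share of glial nuclei in either fraction was not measured, and its part in the other lower peaks was not tested.

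Markers of other cell types showed no such balance. Over all peaks, 23.9% were higher and 15.6% lower. Oligodendrocyte precursor genes had 3 of 14 peaks higher and 2 lower, tanycyte and ependymal genes 6 of 25 and 4, microglial genes 3 of 20 and 3, and vascular genes 8 of 28 and 5. Without the second AgRP-negative library 2 tanycyte and ependymal peaks and 1 microglial peak were lower, and 2 vascular peaks were lower without the first and 3 without the second AgRP-positive library. Some of these increases were large. An intron peak of *Rgs5*, a pericyte marker, had 2.71, 1.54, 15.7 and 18.3 CPM (3.00 ± 0.32, FDR 2.50e-19), and the promoter of *Vim*, the intermediate filament gene of tanycytes and glia, had 16.2, 17.3, 30.4 and 35.9 CPM (0.98 ± 0.17, FDR 2.14e-07). A peak at a gene need not act on that gene. Of 34 peaks at 14 housekeeping genes, 1 was higher and 2 were lower, with a median of -0.16 that was 0.00 with library-size scaling and 0.06 with housekeeping scaling.

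**Figure D3:**
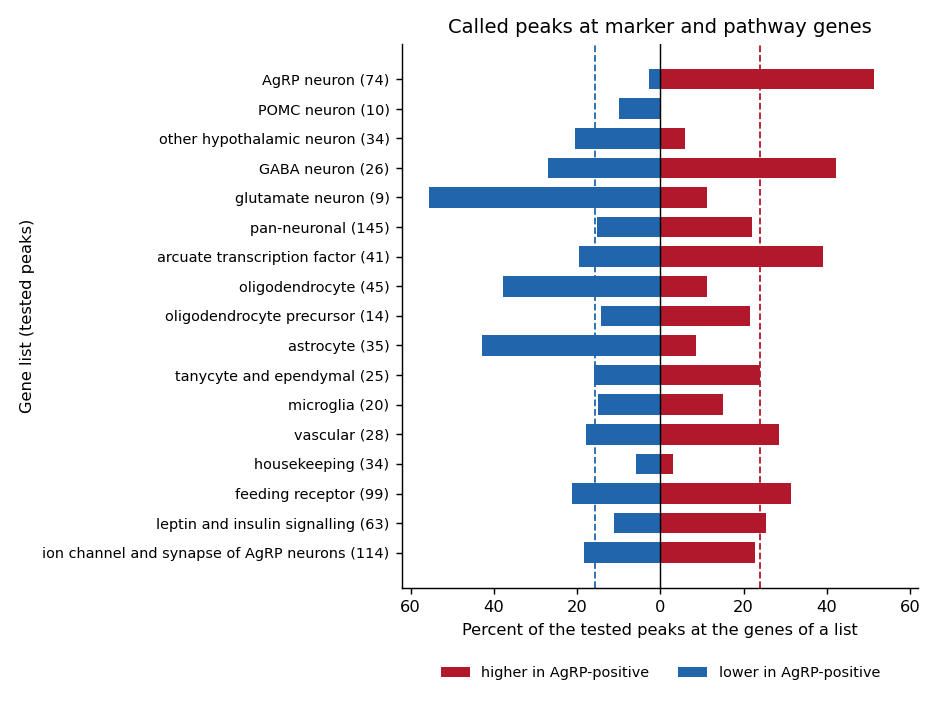
Percent of the tested peaks within 10 kb of the genes of each list that were higher (red, to the right) or lower (blue, to the left) in AgRP-positive nuclei, with the number of tested peaks in brackets. Dashed lines mark the shares over all peaks, 23.9% higher and 15.6% lower; AgRP neuron genes reach 51.4% higher, while glutamate neuron and astrocyte genes reach 55.6% and 42.9% lower.

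The largest increases were not at known AgRP neuron genes. All 10 largest, among peaks with a mean over 5 CPM, were intergenic. The first, at chr6:41248782-41249325, had 0.738 and 0.237 CPM in AgRP-negative libraries and 23.4 and 21.1 CPM in AgRP-positive ones, a 44.9-fold difference (5.49 ± 0.40, FDR 1.89e-38), and its nearest start site, of the trypsin gene *Try4*, was 52.9 kb away. The pair whose STAT sequences are printed above were also in this set, with 0.246, 0.355, 16.7 and 8.50 CPM near *Tmco5* (5.32 ± 0.53, FDR 7.44e-22) and 0.369, 0.237, 8.35 and 11.9 CPM near *Nfe2* (5.02 ± 0.56, FDR 2.35e-17). The one with the highest level in AgRP-positive nuclei, at chr1:83959340-83960213, lay 93.0 kb from the start site of *Pid1*, which encodes a protein that interferes with insulin signalling, and had 1.97, 1.07, 51.6 and 49.1 CPM (5.05 ± 0.26, FDR 1.01e-74). At all of these the AgRP-negative libraries were close to the detection limit.

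The 10 largest decreases, chosen by the same rule, lay in or near other genes. An intron peak of *Sorcs2*, a sorting receptor gene, had 12.2, 8.76, 0.711 and 0.916 CPM, a 12.6-fold difference (-3.66 ± 0.42, FDR 4.18e-16). A promoter peak of *Meis1*, a homeobox gene, had 17.6, 19.5, 2.22 and 1.92 CPM (-3.16 ± 0.30, FDR 2.34e-24). A peak in *Nkx2-2*, a homeobox gene of the ventral neural tube and of oligodendrocytes, had 13.7, 13.4, 1.24 and 1.83 CPM (-3.12 ± 0.34, FDR 8.19e-18).

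Counted by gene, 17223 genes had a tested peak within 10 kb. Of these, 5139 had a higher peak, 5516 had a lower one and 2095 had both. At least 5 higher peaks and no lower one were found at 85 genes, and the converse at 22. The genes named next were chosen after their values were seen. *Dock1*, an activator of the GTPase Rac, had 15 of 21 peaks higher, *Myo3b*, a myosin gene, 14 of 20, and *Esrrg*, an orphan nuclear receptor gene, 11 of 19, none with a lower peak. On the other side, *Nfia* had 11 of 14 peaks lower, *Nfix* 7 of 8 and *Nr2f1* 6 of 6, none with a higher peak. *Nfia* and *Nfix* encode nuclear factor I proteins, and *Nr2f1* encodes the nuclear receptor COUP-TF1. *Kcnj10*, the potassium channel of astrocytes, had 6 of 8 lower.

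Increases were rare at promoters. A promoter was taken as 1000 bases upstream to 100 bases downstream of a start site. Of 16271 promoter peaks, 4.86% were higher and 14.3% were lower. Of 45333 intron and intergenic peaks, together called distal here, 30.8% were higher and 16.2% were lower. Promoters made up 4.97% of the higher peaks, 22.4% of the lower ones and 24.5% of all peaks. The share of higher peaks grew with distance from the nearest protein-coding start site, from 4.73% under 1 kb and 24.0% at 1 to 10 kb to 36.9% at 100 to 500 kb and 41.1% beyond. The share of lower peaks stayed between 14.3% and 17.4% over the same bins. The share of higher promoter peaks remained small under each scaling tried (4.54% to 8.32%), but the excess of lower over higher promoters did not hold under housekeeping scaling (8.32% higher, 6.72% lower), and the promoter median of -0.19 then became 0.02.

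**Figure D4:**
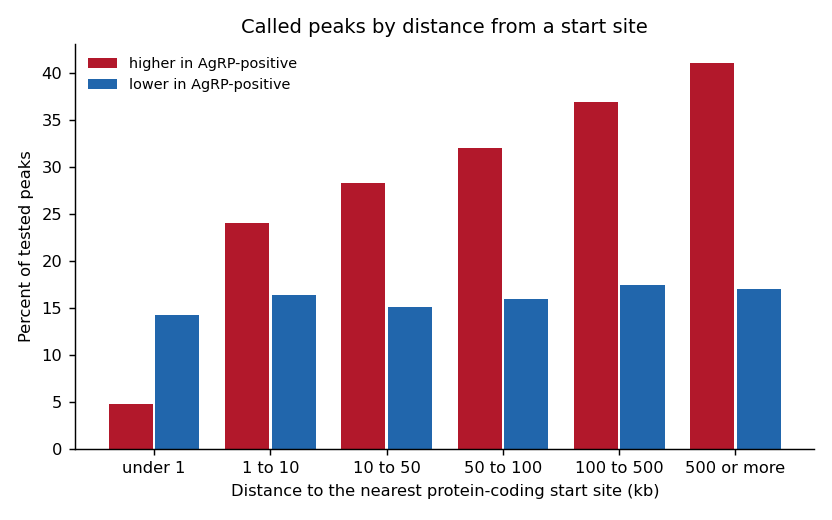
Percent of tested peaks that were higher (red) or lower (blue) in AgRP-positive nuclei, by distance in kb from the nearest protein-coding start site. The red bars climb from 4.73% under 1 kb to 41.1% at 500 kb or more, whereas the blue bars stay between 14.3% and 17.4%.

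Short sequence matches were counted on both strands in the central 300 bases of 45256 distal peaks. The AP-1 letters TGANTCA were present in 22.4% of them: in 38.4% of the higher peaks, 17.7% of those not called and 7.59% of the lower ones. Read the other way, 52.7% of distal peaks with the letters were higher and 5.45% were lower, against 24.5% and 19.2% of those without, and the median log2 fold changes were 1.15 and 0.02. With promoter peaks included, higher peaks had less G and C than the rest (median 43.7%, against 52.0% in lower peaks). Within 5 ranges of GC content the AP-1 share of distal peaks was 32.4% to 44.7% in higher peaks and 3.53% to 13.2% in lower ones. Promoter peaks showed the same order, with AP-1 letters in 29.5% of the higher, 4.50% of those not called and 4.07% of the lower.

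The STAT letters TTCCNGGAA were rarer, at 2.62% of distal peaks, and stood in 5.41% of the higher, 1.55% of those not called and 0.823% of the lower. Their share grew with the size of the increase, from 2.24% of peaks with a log2 fold change of 0.5 to 1 to 11.3% of those over 3. AP-1 did not follow that order (29.8% at 0.5 to 1, 40.5% at 1 to 2 and 31.7% over 3). Smaller excesses in higher over lower peaks were seen for the forkhead letters TGTTTAC (6.34% and 3.60%), the nuclear receptor letters AAGGTCA of the NR4A family and SF1 (6.88% and 4.28%) and the E-box CAGATG (26.7% and 19.9%).

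In lower distal peaks, other letters were more frequent. The nuclear factor I core TTGGCA was in 20.4% of the lower, 15.4% of those not called and 14.8% of the higher, and in 29.0% of those lower by more than 2 on the log2 scale. The SOX letters ACAATGG and ACAAAGG were in 15.03% of the lower, 11.8% of those not called and 12.1% of the higher, and in 21.9% of those lower by more than 2. The GC-rich SP/KLF letters GGGCGG were in 11.8% of the lower and 3.44% of the higher peaks, but at a GC content of 50 to 55% these shares were 9.13% and 8.22%. All shares of matches are descriptions, and factors of one family share their letters. Matches of AP-1 and the cyclic AMP response element were counted separately and can overlap in one peak. The SOX pair was counted together, so that a match to either was enough.

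**Figure D5:**
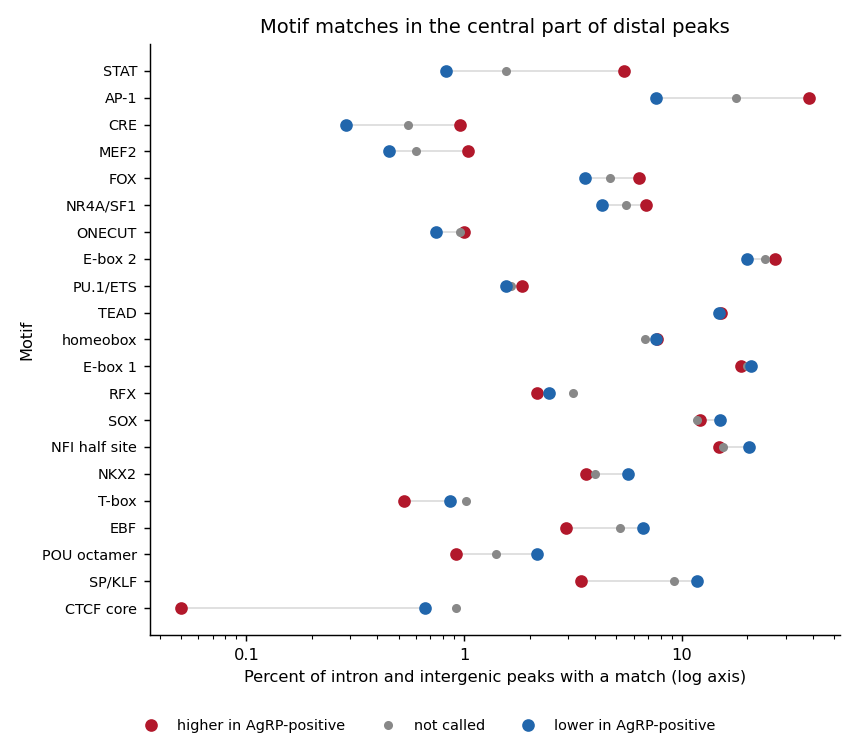
Percent of distal peaks with a match to each set of letters in their central 300 bases, on a log axis, for peaks that were higher (red), lower (blue) or not called (grey) in AgRP-positive nuclei. STAT and AP-1 stand at the top with red furthest to the right of blue (5.41% and 0.823%; 38.4% and 7.59%), and the CTCF core at the bottom with the reverse (0.0502% and 0.659%).

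Other AgRP nuclei of the series gave a second measurement of the same loci. A separate table holds 123721 peaks from 6 libraries of AgRP nuclei of fasted, fed and leptin-treated fasted mice (8263234 to 17190963 reads). It has a peak overlapping 99.4% of the higher peaks, 88.8% of those not called and 58.0% of the lower ones. For lower peaks beyond a log2 fold change of -2 the overlap was 10.5%. Lower peaks therefore included many regions with no peak in AgRP nuclei of any feeding state. Within the higher distal peaks, those with the AP-1 letters had their lowest median levels in the fed libraries, and those without the letters did not. The median level of the 5350 with the letters was 6.41 and 8.38 CPM in fed libraries, 13.97 and 13.1 CPM in fasted libraries and 14.9 and 13.8 CPM after leptin. Of the 8599 without them it was 9.92 and 7.96 CPM in fed, 7.88 and 7.00 CPM in fasted and 7.54 and 7.04 CPM in leptin libraries. For these 8599 only the first fed library stood apart, and it had the fewest reads (8263234). No test was made of these medians, and the nuclei compared above were from fed mice.

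CUT&RUN, which maps where a protein binds DNA, was available as 1 peak list per antibody and tissue, so overlaps are descriptions. A CTCF list from AgRP nuclei overlapped 24.99% of the higher peaks, 30.5% of those not called and 19.9% of the lower ones. A CTCF list from whole cerebellum overlapped 3.54%, 37.96% and 27.5%. Over all peaks the shares were 27.5% for the AgRP list and 28.1% for the cerebellum list, so the higher peaks were below the share of all peaks with both. The CTCF core AGGGGGCGC was in 0.0502% of the higher distal peaks and in 0.608% of all distal peaks. With the AgRP list limited to peaks whose -log10 q was at least 2, the overlap was 12.8%, 23.3% and 15.5%, against 19.6% of all peaks. One further list, whose own name gives no antibody, was taken as that of IRF3 in AgRP nuclei that overexpress IRF3-2D, because the label of that library names a list with a similar but not identical name. The assignment is not certain. It overlapped 4.40%, 17.8% and 12.1%, against 13.7% of all peaks.

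RNA bound to tagged ribosomes was compared at the same genes, using the 3 fed AgRP and 2 fed POMC libraries of other mice. Levels are CPM per kb of exon. Among genes over 1 CPM with a promoter peak, the median log2 ratio of AgRP to POMC RNA was 0.16 for the 452 with a higher promoter, 0.10 for the 9618 not called and -0.03 for the 1614 with a lower one. Of those with a higher promoter, 51 exceeded 2-fold toward AgRP and 8 toward POMC. Of those with a lower promoter, 9 and 31 did, and of the 9618 not called, 95 and 46 did. AgRP RNA was above POMC RNA for 69.7% of genes with a higher promoter and 67.5% of those not called. For genes with a lower promoter the share was 45.6%. *Agrp* RNA was at 285 ± 79.6 (SD, n = 3) in AgRP and 5.35 ± 1.44 (SD, n = 2) in POMC libraries, *Npy* at 1097 ± 363 and 24.9 ± 8.13, *Corin* at 15.5 ± 3.62 and 0.548 ± 0.113, and *Otp* at 63.8 ± 7.94 and 7.38 ± 1.71. *Hsd11b2* had RNA at 40.3 ± 5.56 and 0.125 ± 0.039, although its promoter peak was not called between the sorted fractions. In the reverse case, *Esr1* RNA was at 3.54 ± 0.239 in AgRP and 8.33 ± 1.63 in POMC libraries while its upstream peak was 12.3-fold higher in AgRP-positive nuclei. The AgRP-negative fraction is not a POMC fraction, so the 2 comparisons have different reference cells.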

How the data were processed

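ATAC-seq libraries of 2 AgRP-positive and 2 AgRP-negative pools were analysed, grouped by their labels. The authors aligned reads with Bowtie2 to mm10, filtered out duplicate alignments (SAMtools), merged the peaks that MACS2 called and deposited raw read counts per peak from BEDtools. Versions and any transposase shift are not given in the sources used here. RNA was deposited as featureCounts counts, with exon lengths in bases, after HISAT2 alignment. The CTCF CUT&RUN lists hold the -log10 q of each deposited peak, and the list taken as IRF3 holds a SEACR signal that the authors computed; only positions and q were used.

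Counts were tested with edgeR 4.0.16 (R 4.3.3; quasi-likelihood, TMM, residual df 2 per peak with the spread pooled across peaks), with Benjamini-Hochberg adjustment over all 66560 peaks. Adjusted p-values are given as FDR, and SE is the absolute log2 fold change divided by the square root of F. CPM are scaled by TMM. The procedure was tested on simulated data. Peaks were annotated with GENCODE M21 and sequences read from RefSeq GRCm38.p6 with bedtools 2.31.1 and Python 3.11.15. A peak belonged to a gene when within 10 kb of it, and overlaps needed 1 base.

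The text names peaks at genes the study names for this comparison, the promoter peak and the most changed called peak at each of 195 genes in 17 lists, and the 10 largest increases and decreases among called peaks over 5 CPM whose groups do not overlap. Members and lists were chosen with earlier results of these data known. The methods call the libraries biological replicates, and p-values measure the spread between 2 libraries per group. Depth limits peaks near 1 CPM, about 9 to 11 reads per library. Alternatives used DESeq2 1.42.0, limma 3.58.1 (loess offsets), other scalings, filters and thresholds, a replicate block and each library left out. Other CUT&RUN lists, and RNA of other states, were not used here. Some genes of the lists are not reported here.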

Additional observations from a re-analysis of the deposited data

How the results depend on the processing

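No named peak reversed under any alternative run, and the directions of the totals held throughout. Against 15926 higher and 10405 lower peaks, a filter at 5 CPM gave 8249 and 3803, and housekeeping scaling gave 6426 lower. Requiring an absolute log2 fold change over 1 left 6874 lower. Leaving out 1 library at a time gave 10813 to 14349 higher and 6056 to 8684 lower. DESeq2 called 11554 and 7051. Of 106 named higher peaks, 8 to 18 lost their call when a library was left out, and of 107 named lower peaks, 21 to 44 did.

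The lower oligodendrocyte peaks (17) were 5 over 5 CPM, 11 within 2 kb of a gene and 8 to 18 with a library left out. The lower astrocyte peaks (15) were 6 over 5 CPM and 8 to 13 with a library left out. Of 558 other list counts under alternatives, 445 stayed within a factor of 1.5 and 113 did not. Higher promoter peaks (791) were 507 with DESeq2 and 1353 with housekeeping scaling. Lower promoter peaks (2334) were 1094 with housekeeping scaling, 1280 with library size and 1287 over 5 CPM. For all of these the cause was not tested, except that a higher filter leaves fewer peaks to call.

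Counting letters over whole peaks gave AP-1 shares of 46.4% (higher), 10.1% (lower) and 19.8% (not called), and STAT shares of 7.02%, 1.08% and 1.89%. When a fraction of at least 0.5 of a peak had to be covered, overlap with the feeding-state table was 98.8%, 49.9% and 85.3%, with CTCF in AgRP nuclei 24.2%, 18.6% and 28.3%, with CTCF in cerebellum 3.21%, 25.6% and 35.7%, and with the list taken as IRF3 3.97%, 11.1% and 16.4%. With a -log10 q of at least 2, the CTCF overlaps were 12.8%, 15.5% and 23.3% in AgRP nuclei and 3.25%, 26.4% and 37.0% in cerebellum. This limit, and leaving out the mitochondrial, unplaced and very high peaks, were chosen after seeing the data.

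Both fractions came from the same pools, but no source ties replicate numbers to pools, and same-numbered libraries deviated together only weakly (r 0.0988 across peaks). A fit with the replicate number as a block called 17237 higher and 11573 lower peaks, which include 15925 and 10394 of the peaks called without it.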
